A study of Mus musculus with 12 samples.

Results

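The mitochondrial Slc25 carriers were examined in dendritic cells (DCs) of the mouse gut. Members were all protein-coding genes whose mouse symbol is Slc25a followed by a number and that reached 5 counts in 1 or more of the 12 RNA-seq samples. Of 47 such genes in the annotation, 43 passed, among 20580 genes tested in all. The rule used the name and a minimum count, and no comparison of the groups entered it. The members and the lists used below were nevertheless chosen with earlier results of these data known.

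DCs were sorted from the intestine of mice with wild-type *Cbfb* (WT) and of mice labelled *Cbfb*-cKO, both on a mixed background, and each group held 3 samples. *Cbfb* encodes the partner that all Runx transcription factors need to bind DNA firmly, and the cKO mice carried floxed *Cbfb* on both copies and a Cre transgene under the CD11c promoter. The study places its analyses of gut DCs in young mice, while the age of the mice used for RNA-seq, and whether the WT mice carried CD11c-Cre, are not given as such in the sources used here, and CD11c-Cre is known to recombine in some other blood cells too. Samples came as CD103+CD11b- DCs, which correspond to type 1 conventional DCs (cDC1), and as CD103-CD11b+ DCs, which belong to type 2 (cDC2), giving 4 groups. Levels are CPM values, which set counts against the library's total, scaled by the TMM method, and replicates 1, 2 and 3 are given in that order.

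Carriers of the Slc25 family sit in the inner mitochondrial membrane, with a few members elsewhere, and exchange nucleotides, phosphate, amino acids, keto acids, cofactors and metals between the cytosol and the matrix. They are encoded in the nucleus, made in the cytosol and inserted into the inner membrane through the TOM and TIM22 import complexes. Each carrier is built of 3 repeats, and a short signature of a proline, an acidic and a basic residue recurs in them. In DCs, mitochondrial metabolism is known to change with maturation and to differ between subsets.

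Between 2161929 and 5863484 counts per sample fell on genes, and the 43 members took between 0.188% and 0.256% of them, from 4986 to 14710 counts. Counts on genes were 32.7% to 38.8% of the sum of reads on a gene, on no gene and on more than 1. A count of 3, taken as the floor, corresponds to between 0.512 and 1.39 CPM in these samples, and this covers counting error only. All 6 cDC1 markers were lower in CD103-CD11b+ DCs in both genotypes, with a summed level of 2450 to 3457 CPM in WT and 3471 to 4049 CPM in cKO CD103+CD11b- samples and of 343 to 671 CPM in the 6 others. *Itgae*, 1 of these 6, encodes CD103, an antigen of the sort, so its difference between the subsets is not independent of the gate. The level of *Cbfb* was 199 to 228 CPM in WT and 215 to 290 CPM in cKO CD103+CD11b- samples, and 161 to 217 CPM in WT and 170 to 273 CPM in cKO CD103-CD11b+ samples. Counts over a whole gene do not resolve a deleted exon, so cKO here stands for the samples labelled so, and this level does not check the label.

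The members spanned a wide range of levels. Per kilobase of exon (RPKM, averaged over the 12 samples), the phosphate carrier *Slc25a3* was highest with 69.3 ± 20.2 RPKM (SD, n = 12). Next came the oxoglutarate/malate carrier *Slc25a11* with 45.2 ± 6.01, the ADP/ATP carrier *Slc25a5* with 38.6 ± 7.55, *Slc25a45*, which belongs to the branch of the basic amino acid and carnitine carriers, with 33.6 ± 5.93, and the carnitine/acylcarnitine carrier *Slc25a20* with 32.8 ± 14.4 RPKM (SD, n = 12). The last 2 and the second ADP/ATP carrier *Slc25a4*, with 32.5 ± 6.67 RPKM (SD, n = 12), differed by less than this spread. This SD pools the 4 groups, so it holds differences between groups as well as between replicates. The order differed between subsets, with *Slc25a20* at a mean of 44.5 RPKM in WT and 47.9 RPKM in cKO CD103+CD11b- DCs and at 19.1 and 19.8 RPKM in CD103-CD11b+ DCs, where *Slc25a4* and *Slc25a45* lay above it. *Slc25a3* alone took between 12.8% and 27.5% of a sample's Slc25 counts.

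*Slc25a3* had 350, 309 and 338 CPM in WT CD103+CD11b- DCs and 308, 340 and 441 CPM in the cKO samples. In CD103-CD11b+ DCs it had 306, 299.8 and 438 CPM in WT and 359, 431 and 699 CPM in cKO. The sample with 699 CPM stood above the others, the groups overlapped in the first subset as in the second, and no comparison called the gene. *Slc25a11* ranged from 72.0 to 113 CPM and *Slc25a5* from 52.1 to 89.2 CPM over the 12 samples, with overlap among all 4 groups, and neither was called in any comparison.

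At the other end, *Slc25a34*, a carrier with no settled substrate, had no count in 6 samples and at most 8 counts. *Slc25a48*, linked to choline, had 31 counts in WT CD103-CD11b+ replicate 1 and none in the other 11 samples, so that it passed the filter through 1 sample. Of the 4 genes that did not pass, the oxodicarboxylate carrier *Slc25a21* had 1 count in all and the ATP-Mg/phosphate carrier *Slc25a41* 7, while *Slc25a31*, the ADP/ATP carrier of the testis, and *Slc25a54* had 0 counts in every sample, which allows up to 3 counts per sample.

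**Figure D1:**
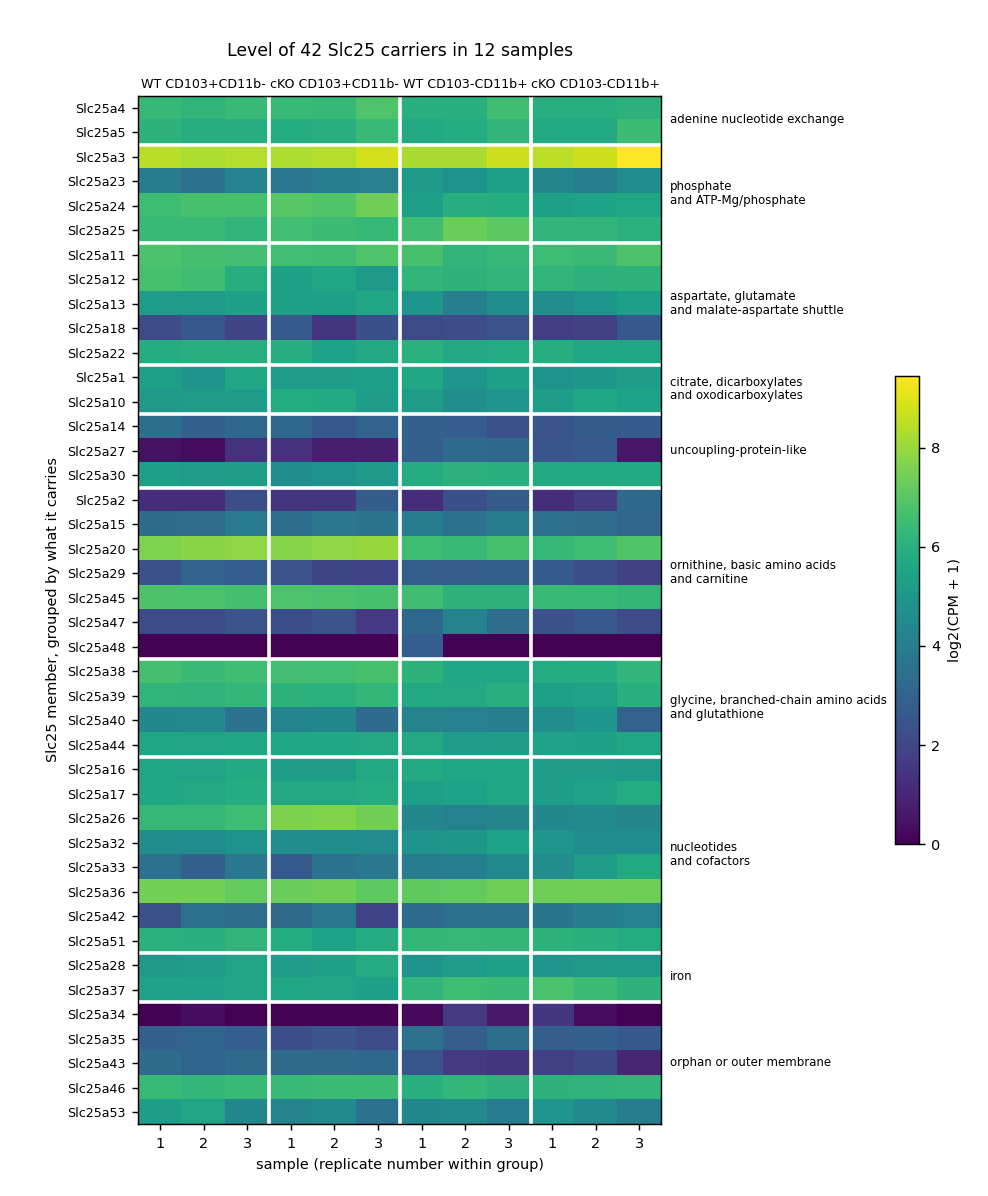
Level of 42 members in each of the 12 samples as log2(CPM + 1), with rows grouped by what the carrier moves and columns by group. *Slc25a3* is the brightest row in every sample, *Slc25a48* has a value in 1 sample only, and *Slc25a26* is brightest in the 3 cKO CD103+CD11b- samples.

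The summed level of the 43 members was 2364 ± 42.7 CPM in WT and 2504 ± 129 CPM in cKO CD103+CD11b- DCs, and 2127 ± 159 CPM in WT and 2250 ± 257 CPM in cKO CD103-CD11b+ DCs (SD, n = 3 each). Without the 3 members with most counts, *Slc25a3*, *Slc25a20* and *Slc25a36*, the means were 1652 and 1754 CPM in the first subset and 1539 and 1493 CPM in the second. The genotype difference of the sum was within about the spread of the samples in the second subset and turned direction there without these 3 members.

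To ask which carriers depend on Cbfb, cKO was compared with WT in each subset. In CD103+CD11b- DCs 2 members of 43 were called, 1 higher and 1 lower, at a false discovery rate (FDR) under 0.05 and a fold change over 1.3 in edgeR's quasi-likelihood test, with FDR from the Benjamini-Hochberg adjustment over all 20580 genes. *Slc25a26*, the carrier that brings S-adenosylmethionine, the methyl donor, into mitochondria, rose 2.28-fold. *Slc25a12*, a calcium-regulated aspartate/glutamate carrier of the malate-aspartate shuttle, fell 2.09-fold. Of all genes tested 1.02% were called in this comparison, 0.224% higher and 0.797% lower in cKO. At an unadjusted p under 0.05, 3 members were higher and 5 lower, 18.6% of the members against 10.5% of all genes. The median log2 fold change was 0.0045 over the members and -0.017 over all genes.

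In CD103-CD11b+ DCs 2 other members were called, 1 higher and 1 lower. *Slc25a25*, a calcium-regulated ATP-Mg/phosphate carrier, fell 1.81-fold. The background was 1.61% of all genes, 1.11% higher and 0.5% lower in cKO. At an unadjusted p under 0.05, 3 members were higher and 5 lower, which is 18.6% of the members against 17.4% of all genes. The median log2 fold change was -0.061 over the members and -0.061 over all genes.

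No member was called in both subsets. The difference of the cKO effects between the subsets was tested as an interaction, and it was called for *Slc25a26* only, at an FDR under 0.05. This background was 0.651% of all genes, 0.554% with a larger and 0.0972% with a smaller log2 change in CD103-CD11b+ DCs. With a larger change there, edgeR called 0 members, 3 at an unadjusted p under 0.05, and DESeq2 0.

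The coding stretch around the first match to the carrier signature is shown for 3 of the members that were called between genotypes, since it is what marks these otherwise different genes as one family. It was searched as proline, any residue, aspartate or glutamate, any 2 residues, lysine or arginine. Each line holds 60 coding bases of the GENCODE M21 transcript (GRCm38), 5′ to 3′ on the gene's own strand, and capitals mark the codons of the match:

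Slc25a26 (chr6:94507535-94507594, plus strand, exon 2): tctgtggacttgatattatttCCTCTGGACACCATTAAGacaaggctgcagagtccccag

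Slc25a12 (chr2:71296762-71296821, minus strand, exon 11): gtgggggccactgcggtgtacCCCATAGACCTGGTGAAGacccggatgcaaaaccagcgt

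Slc25a25 (chr2:32417868-32419098, minus strand, exons 6 to 7 with the intron left out): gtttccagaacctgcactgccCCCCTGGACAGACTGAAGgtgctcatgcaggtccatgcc

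The match starts at residue 26 of 274 in Slc25a26, 346 of 677 in Slc25a12 and 251 of 514 in Slc25a25. Slc25a26 opens with it soon after its start, while the other 2 carry long stretches before it, in which the calcium-binding part of these carriers is known to lie. Over the family, 40 of 43 members held at least 1 match, 35 at least 2 and 25 held 3, and *Slc25a46*, *Slc25a51* and *Slc25a53* held 0. Proteins were 265 to 677 residues long, with a median of 318.

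*Slc25a26* (ENSMUSG00000045100, chromosome 6, 94500331 to 94604672, plus strand) had 76.9, 76.6 and 90.2 CPM in WT CD103+CD11b- DCs and 190.2, 199 and 167 CPM in the cKO samples. All 3 cKO samples lay above all 3 WT samples. The log2 fold change was 1.19 (standard error 0.12, 95% interval 0.94 to 1.44, edgeR FDR 0.00174). In CD103-CD11b+ DCs it had 19.2, 16.99 and 18.6 CPM in WT and 20.0, 21.2 and 18.9 CPM in cKO, and the groups overlapped. There the log2 fold change was 0.13 (standard error 0.12, 95% interval -0.14 to 0.41, edgeR FDR 0.635). The effects differed by -1.06 on the log2 scale (standard error 0.17, edgeR FDR 0.0227).

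The rise in CD103+CD11b- DCs was called under all 20 alternatives of normalization, test, filter, block and samples, with a log2 fold change of 1.13 to 1.27 and an FDR of at most 0.0155. The difference between subsets kept its size, with log2 values of -1.13 to -1.0, but passed the FDR in 11 of 19 alternatives, and leaving out any of 8 single samples ended the call, with FDR of 0.0514 to 0.0858. These were WT CD103+CD11b- replicates 1 and 2, cKO CD103+CD11b- replicates 1 and 2, WT CD103-CD11b+ replicate 3 and all 3 cKO CD103-CD11b+ replicates. Exons of *Slc25a26* overlap those of *Lrig1* on the other strand over 3.0% of their length, and the counts were made without strand.

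*Slc25a12* (ENSMUSG00000027010, chromosome 2, 71271063 to 71367749, minus strand) had 104, 93.8 and 58.5 CPM in WT CD103+CD11b- DCs and 41.3, 47.6 and 33.2 CPM in cKO. Groups did not overlap, and WT replicate 3 lay nearest to the cKO samples. The log2 fold change was -1.06 (standard error 0.20, 95% interval -1.50 to -0.62, edgeR FDR 0.0364). In CD103-CD11b+ DCs, with 73.4, 68.3 and 72.7 CPM in WT and 71.2, 67.1 and 67.3 CPM in cKO, the 6 samples lay close together and overlapped. This call was lost in 11 of 20 alternatives, with FDR up to 0.162, which are the fit to the 6 samples of the comparison and the omission of any sample other than WT CD103+CD11b- replicate 3 or cKO CD103-CD11b+ replicate 3. The interaction was not called for it (log2 difference 1.0, edgeR FDR 0.186). Its closest relative in the family, the aspartate/glutamate carrier *Slc25a13*, had a log2 fold change of 0.21 and was not called.

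Markers of cDC2 moved with these changes in CD103+CD11b- DCs. Their summed level was 363 to 615 CPM in the WT samples and 82.9 to 127 CPM in the cKO samples, and 3 of 5 markers fell, *Sirpa*, *Irf4* and *Cd209a*, while none of the 5 was at 0 in a whole group. *Itgam*, of the same list, encodes the sort antigen CD11b. It had a mean of 4.33 CPM in WT and 8.14 CPM in cKO, a log2 value of 0.92 that was not called (edgeR FDR 0.239). The sums of cDC1 markers, given above, were higher in all 3 cKO samples than in the WT samples, with 0 of 6 markers called by edgeR, 2 higher at an unadjusted p under 0.05, and 1, *Cadm1*, called by DESeq2.

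Lists of other cells did not move one way in this comparison. Of 6 epithelial markers edgeR called *Epcam* lower, 2 were higher and 1 lower at an unadjusted p under 0.05, and the sum was 44.3 to 53.5 CPM in WT and 15.5 to 58.3 CPM in cKO. T cell markers summed to 56.1 to 85.8 CPM in WT and 30.2 to 39.1 CPM in cKO, with 0 of 5 called by edgeR or DESeq2 and 1, *Cd4*, lower at an unadjusted p under 0.05. *Cd4* had means of 62.6 and 18.6 CPM, while *Cd3e* had 5.56 and 6.598 CPM and *Trac* 4.86 and 6.55 CPM. In sorted bulk samples, fewer cells of a type and less RNA per cell cannot be told apart. *Slc25a26* was lower in CD103-CD11b+ than in CD103+CD11b- DCs in both genotypes, and the part of these markers in either result was not tested.

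*Slc25a25* (ENSMUSG00000026819, chromosome 2, 32414487 to 32451445, minus strand) had 92.2, 159 and 134 CPM in WT CD103-CD11b+ DCs and 73.0, 73.0 and 65.3 CPM in cKO. All cKO samples lay below the lowest WT sample, and the WT samples were spread widely. The log2 fold change was -0.86 (standard error 0.17, 95% interval -1.24 to -0.47, edgeR FDR 0.0395). In CD103+CD11b- DCs it had 82.8, 82.8 and 72.3 CPM in WT and 95.2, 87.1 and 79.4 CPM in cKO, and the groups overlapped. The call was lost in 10 of 20 alternatives, with FDR of up to 0.199, and it held without WT CD103+CD11b- replicate 3, cKO CD103+CD11b- replicate 3 or WT CD103-CD11b+ replicate 1 but not without any other single sample. The interaction was not called in edgeR (log2 difference -1.0, FDR 0.127) and was called in DESeq2. Its exons overlap *Naif1* on the other strand over 4.82% of their length.

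When any single sample was left out, this comparison held 0 or 1 called members in place of 2. Some markers moved with genotype here. *Itgae*, 1 of 6 cDC1 markers, encodes CD103, on whose absence these cells were sorted, and in the study CD103 also marks some gut cDC2s. It fell from a mean of 189.7 to 50.4 CPM (log2 value -1.89, edgeR FDR 0.0301), and the cDC1 list as a whole did not fall. The log2 values of the other 5 lay between 0.05 and 1.29, 2 of them with an unadjusted p under 0.05 and none called by edgeR or DESeq2. B cell markers summed to 14.5 to 72.3 CPM in WT and 65.8 to 382 CPM in cKO CD103-CD11b+ samples, and *Ms4a1*, 1 of 5, rose, with 2 higher at an unadjusted p under 0.05 and DESeq2 calling *Cd79b* as well. DESeq2 also called *Itgam* of the cDC2 list and *Ccr7* of the shared DC list higher, which edgeR did not. Macrophage markers summed to 136 to 324 and 291 to 455 CPM, and *Adgre1*, 1 of 7, rose from a mean of 51.9 to 197 CPM, while the log2 values of the other 6 lay between -0.69 and 0.08 and none was called by edgeR or DESeq2 or had an unadjusted p under 0.05. Epithelial markers summed to 89.3 to 165 CPM in WT and 31.4 to 60.7 CPM in cKO, with 0 of 6 called by edgeR, 4 lower at an unadjusted p under 0.05 and 2 called lower by DESeq2. No marker of these lists was at 0 in a whole group, and their part in this result was not tested.

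**Figure D2:**
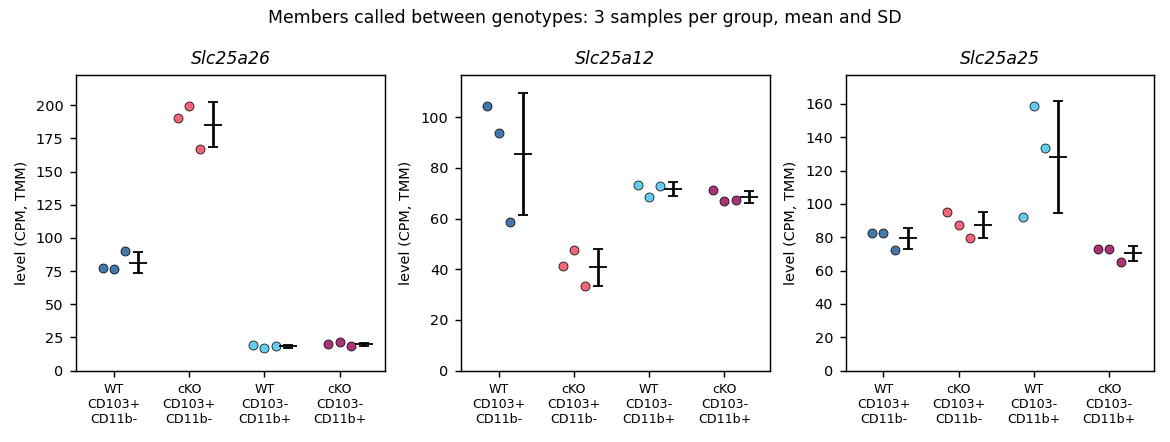
Level in CPM of 3 members called between genotypes, with 1 point per sample and the mean and SD of 3 samples beside each group. *Slc25a26* separates cKO from WT in CD103+CD11b- DCs (167 to 199 against 76.6 to 90.2 CPM) and stays at 16.99 to 21.2 CPM in all 6 CD103-CD11b+ samples.

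Among the members not called between genotypes, the dicarboxylate carrier *Slc25a10* was among those with the same direction in both subsets. It had 0.45 on the log2 scale in the first subset (edgeR FDR 0.409) and 0.50 in the second (edgeR FDR 0.207). *Slc25a30* had -0.41 and -0.23, and *Slc25a51*, which carries NAD, -0.34 and -0.28. The second calcium-regulated ATP-Mg/phosphate carrier *Slc25a23* differed by -0.80 on the log2 scale in the second (edgeR FDR 0.12), and the liver-enriched *Slc25a47* by -1.43 (edgeR FDR 0.096). Both were called there by DESeq2, which called 4 members in that comparison. The pyrimidine nucleotide carrier *Slc25a33* had a log2 fold change of 1.07 in the same cells (edgeR FDR 0.178).

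For the 26 members that were called in no comparison and had counts in every sample, log2 fold changes ran from -1.0 to 0.45 in the first subset and from -0.66 to 0.58 in the second. The 95% intervals of these values reached 0.45 and 0.46 to each side at the median of the 26 members, before any adjustment for the number of genes.

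**Figure D3:**
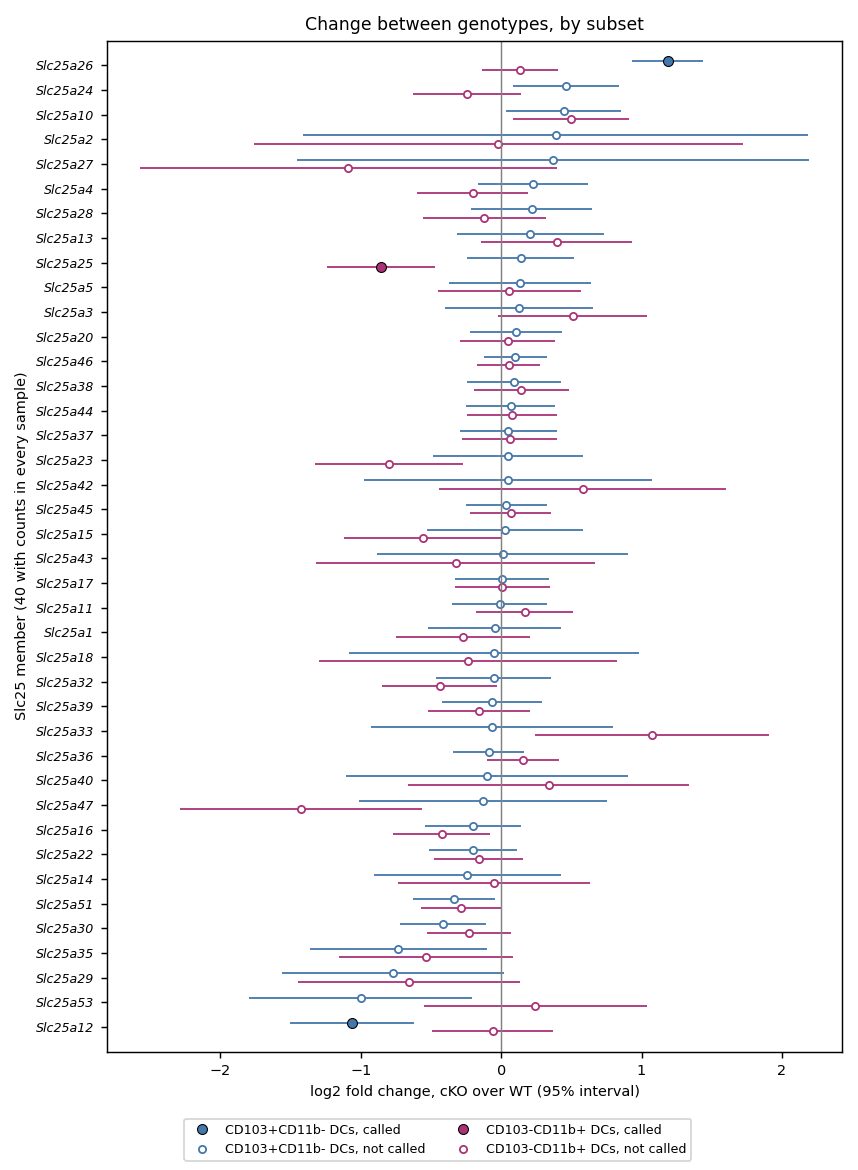
Log2 fold change of cKO over WT with its 95% interval in CD103+CD11b- and CD103-CD11b+ DCs, for 40 members with counts in every sample, sorted by the first. Filled points mark 3 calls, and *Slc25a26* at the top has 1.19 in the first subset and 0.13 in the second.

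The subsets differed more widely than the genotypes. Within WT, 12 members were called between CD103-CD11b+ and CD103+CD11b- DCs, 6 higher and 6 lower in CD103-CD11b+ DCs. The background was 18.8% of all genes, 11.8% higher and 7% lower, and the members' share was 27.9%. Within cKO, 10 members were called, 5 in each direction (23.3%), against 16.1% of all genes, 9.26% higher and 6.81% lower. At an unadjusted p under 0.05 the share was 39.5% of members in each genotype, against 34.3% of all genes in WT and 31.9% in cKO. Over any difference among the 4 groups at an FDR under 0.01, 9 members (20.9%) were called against 12% of all genes, and 5 to 11 members with 1 sample left out.

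The WT and cKO comparisons rest on different samples. They shared 7 called members, 58.3% of the WT and 70% of the cKO calls, all 7 in the same direction. Over all genes tested, 1746 were called in both, 45.2% of the WT and 52.8% of the cKO calls, 1735 of them in the same direction, and whether the members differ from this was not tested. *Slc25a26*, *Slc25a20*, *Slc25a24*, *Slc25a38* and *Slc25a43* were lower and *Slc25a37* and *Slc25a30* higher in CD103-CD11b+ DCs. Leaving out WT CD103+CD11b- replicate 1 or replicate 2 brought the WT count from 12 to 7.

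**Figure D4:**
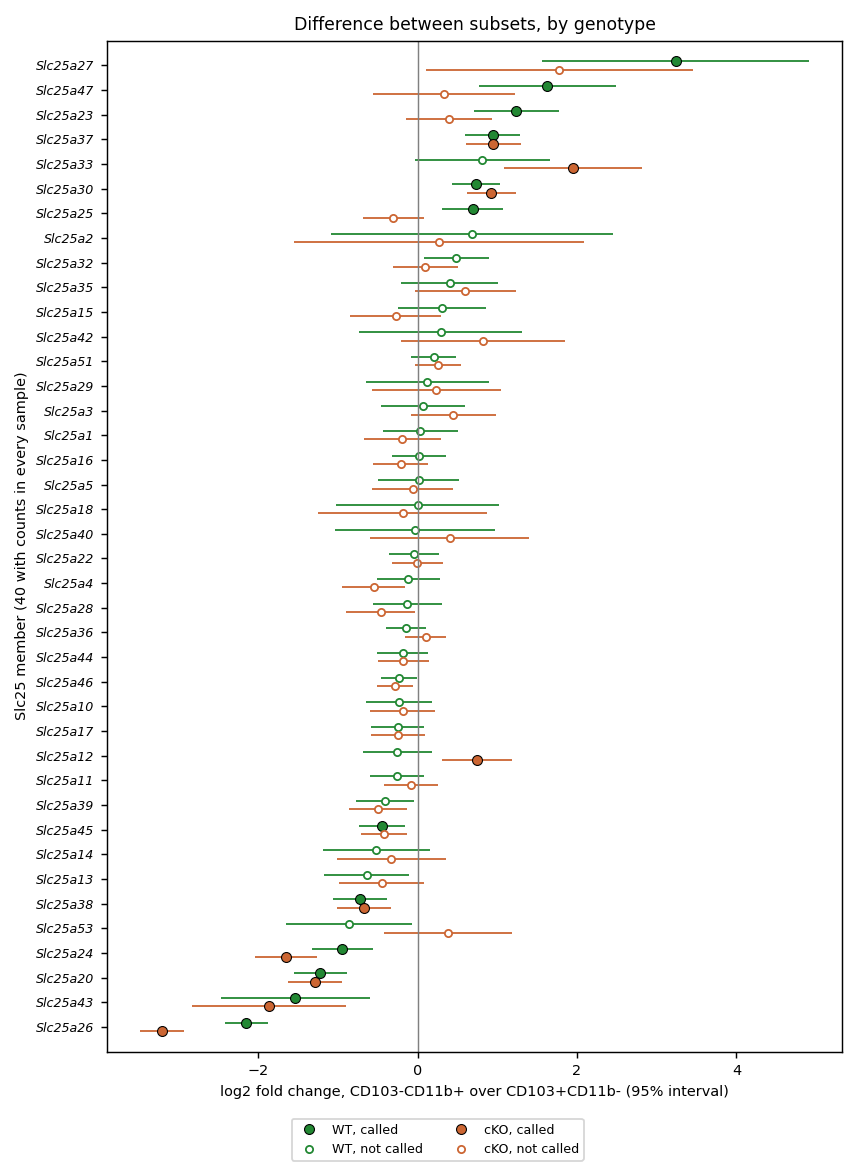
Log2 fold change of CD103-CD11b+ over CD103+CD11b- DCs with its 95% interval in WT and in cKO, for 40 members with counts in every sample, sorted by the WT value. Filled points mark calls, 12 in WT and 9 in cKO, and *Slc25a26* has the lowest value in both, -2.15 and -3.21.

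Among the carriers of cofactors and nucleotides, *Slc25a26* differed most. Its values, given above, did not overlap between the subsets in either genotype, and it was 4.44-fold lower in CD103-CD11b+ DCs of WT (log2 -2.15, standard error 0.12, edgeR FDR 4.37e-06) and 9.23-fold lower in those of cKO (log2 -3.21, standard error 0.13, edgeR FDR 7.31e-07). *Slc25a33*, which carries pyrimidine nucleotides into the matrix, had 10.6, 6.64 and 12.9 CPM in WT and 5.33, 10.98 and 12.9 CPM in cKO CD103+CD11b- DCs, and 15.1, 16.0 and 22.1 CPM in WT and 23.6, 37.1 and 52.0 CPM in cKO CD103-CD11b+ DCs. It did not overlap between the subsets in either genotype and was called in cKO, with a log2 fold change of 1.95 (edgeR FDR 0.00642), and not in WT, with 0.81 (edgeR FDR 0.163). The difference between genotypes of the subset effect was not called for it (edgeR FDR 0.482). Exons of *Slc25a33* overlap those of *Gm13068* on the other strand over 14.9% of their length, in counts made without strand. The other pyrimidine carrier, *Slc25a36*, ranged from 138 to 175 CPM over all 12 samples and was not called.

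Carriers of fuels and amino acids followed. *Slc25a20*, which imports acylcarnitines for fatty acid oxidation, had 198, 219 and 229 CPM in WT and 211, 231 and 254 CPM in cKO CD103+CD11b- DCs. In CD103-CD11b+ DCs it had 89.5, 83.6 and 104 CPM in WT and 79.0, 89.7 and 118 CPM in cKO. All 6 samples of the second subset lay below all 6 of the first, with log2 fold changes of -1.22 (edgeR FDR 0.000691) and -1.28 (edgeR FDR 0.00025). *Slc25a38*, the glycine carrier whose product feeds heme synthesis, had 101, 86.0 and 92.6 CPM in WT and 97.2, 96.2 and 104 CPM in cKO CD103+CD11b- DCs, and 67.7, 50.3 and 50.3 CPM in WT and 55.9, 56.9 and 74.4 CPM in cKO CD103-CD11b+ DCs. It was lower in the latter, with log2 fold changes of -0.73 (edgeR FDR 0.0104) and -0.67 (edgeR FDR 0.0123), and the cKO call was lost without cKO CD103-CD11b+ replicate 2 (FDR 0.0541).

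*Slc25a45* had 111, 106 and 99.3 CPM in WT and 115, 106 and 103.25 CPM in cKO CD103+CD11b- DCs, and 93.6, 68.6 and 68.9 CPM in WT and 82.4, 84.2 and 76.0 CPM in cKO CD103-CD11b+ DCs. On the log2 scale it differed by -0.45 in WT (edgeR FDR 0.036) and by -0.42 in cKO (edgeR FDR 0.0514), so that the call fell in WT only with values alike in both. The WT call was lost in 9 of 21 alternatives (FDR up to 0.1195), among them a filter of 5 counts in every sample, one of 1 count in any sample, the fit to 6 samples and the omission of WT CD103+CD11b- replicate 1 or 2, WT CD103-CD11b+ replicate 2 or 3, or cKO CD103+CD11b- replicate 1 or 2. *Slc25a12* was called in cKO, where it was 1.68-fold higher in CD103-CD11b+ DCs (log2 0.75, edgeR FDR 0.0268), and in WT its log2 fold change was -0.26. That call was lost without cKO CD103+CD11b- replicate 1 or 3 or cKO CD103-CD11b+ replicate 1 or 2, with FDR of 0.0626 to 0.0932.

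The ATP-Mg/phosphate carriers, which set the adenine nucleotide content of the matrix under control of calcium, did not move as a group. *Slc25a24* had 90.6, 102 and 104 CPM in WT and 125, 119 and 167 CPM in cKO CD103+CD11b- DCs, against 39.3, 59.0 and 56.4 CPM in WT and 40.9, 43.3 and 46.4 CPM in cKO CD103-CD11b+ DCs. It was lower in the second subset in both genotypes, with log2 fold changes of -0.94 (edgeR FDR 0.00552) and -1.65 (edgeR FDR 0.000123). Its paralogs had the opposite direction in WT. *Slc25a23* had 14.7, 10.5 and 17.3 CPM in WT CD103+CD11b- DCs and 32.3, 28.0 and 40.4 CPM in WT CD103-CD11b+ DCs, which on the log2 scale is a difference of 1.24 (edgeR FDR 0.00735). In cKO its values were 12.2, 15.6 and 16.4 and 18.9, 15.9 and 23.5 CPM, which overlapped (log2 0.39, edgeR FDR 0.297). *Slc25a25*, with the values above, was 1.61-fold higher in CD103-CD11b+ DCs of WT (log2 0.69, edgeR FDR 0.0212) and had a log2 fold change of -0.31 in cKO (edgeR FDR 0.251). The WT call of *Slc25a25* was lost in the fit to 6 samples and without any WT sample other than CD103-CD11b+ replicate 1 (FDR 0.0591 to 0.0889). The change of these subset differences with genotype was not called for any of these 3 genes in edgeR, with FDR of 0.37 for *Slc25a23*, 0.289 for *Slc25a24* and 0.127 for *Slc25a25*.

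Iron carriers differed from each other. *Slc25a37* (mitoferrin 1) had 42.1, 43.015 and 45.4 CPM in WT and 47.9, 45.4 and 41.8 CPM in cKO CD103+CD11b- DCs, and 74.0, 90.6 and 86.4 CPM in WT and 106, 87.3 and 67.8 CPM in cKO CD103-CD11b+ DCs. It was higher in the second subset in both genotypes, with log2 fold changes of 0.94 (edgeR FDR 0.00331) and 0.95 (edgeR FDR 0.00197). Its exons overlap *Gm31748* and *Gm27223* on the other strand over 6.33% of their length. *Slc25a28* (mitoferrin 2), whose coding sequence is 67.2% identical, had log2 fold changes of -0.13 and -0.46 and was not called without the replicate block described below. Whether the 2 paralogs differ from each other was not tested.

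Of the uncoupling-protein-like carriers, *Slc25a30* had 39.0, 35.7 and 36.9 CPM in WT and 23.5, 27.6 and 32.9 CPM in cKO CD103+CD11b- DCs, and 55.8, 66.6 and 63.4 CPM in WT and 52.1, 52.3 and 54.1 CPM in cKO CD103-CD11b+ DCs. All samples of the second subset lay above all samples of the first, with log2 fold changes of 0.74 (edgeR FDR 0.00606) and 0.92 (edgeR FDR 0.00117). *Slc25a27*, best known from the brain as UCP4, had 0.342, 0.229 and 1.62 CPM in WT CD103+CD11b- DCs and 6.46, 8.995 and 8.14 CPM in WT CD103-CD11b+ DCs, which on the log2 scale is a difference of 3.24 (edgeR FDR 0.0163). The lower of these values rest on counts near the floor of 3, and the call was lost without WT CD103+CD11b- replicate 1 or replicate 2 (FDR 0.0638 and 0.0665). With 1 sample left out, the log2 value in WT ran from 2.79 to 4.61. In cKO *Slc25a27* had 1.55, 0.732 and 0.782 CPM and 4.71, 5.23 and 0.510 CPM, which overlapped.

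Low levels also stood behind the last calls. *Slc25a43*, a carrier of unknown substrate, had 9.23, 7.32 and 8.73 CPM in WT and 8.65, 8.54 and 8.21 CPM in cKO CD103+CD11b- DCs, and 4.70, 1.999 and 1.75 CPM in WT and 2.47, 3.09 and 1.02 CPM in cKO CD103-CD11b+ DCs. It was lower in the second subset in both genotypes, with log2 fold changes of -1.53 (edgeR FDR 0.0311) and -1.87 (edgeR FDR 0.0148), and no sample of either overlapped. The WT call was lost in the fit to 6 samples (FDR 0.0739) and without WT CD103+CD11b- replicate 1 or 2 or WT CD103-CD11b+ replicate 2 or 3 (FDR 0.0669 to 0.0883). With 1 sample left out, the log2 value in WT ran from -2.2 to -1.33.

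*Slc25a47*, a carrier found mainly in liver, had 3.42, 3.43 and 4.37 CPM in WT CD103+CD11b- DCs and 8.22, 17.7 and 9.31 CPM in WT CD103-CD11b+ DCs, which on the log2 scale is a difference of 1.63 (edgeR FDR 0.0179). The gene lies 0.163 kb from *Slc25a29* on the other strand, and counts were made without strand. In cKO it had 3.77, 4.39 and 1.96 and 4.04, 5.23 and 3.57 CPM, with overlap. The WT call was lost without WT CD103+CD11b- replicate 1 or 2 or WT CD103-CD11b+ replicate 2 (FDR 0.0665 to 0.0746). Epithelial markers were highest in WT CD103-CD11b+ samples too, at 89.3 to 165 CPM against 44.3 to 53.5 CPM in WT CD103+CD11b- samples, with 3 of 6 called higher, and their part was not tested.

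**Figure D5:**
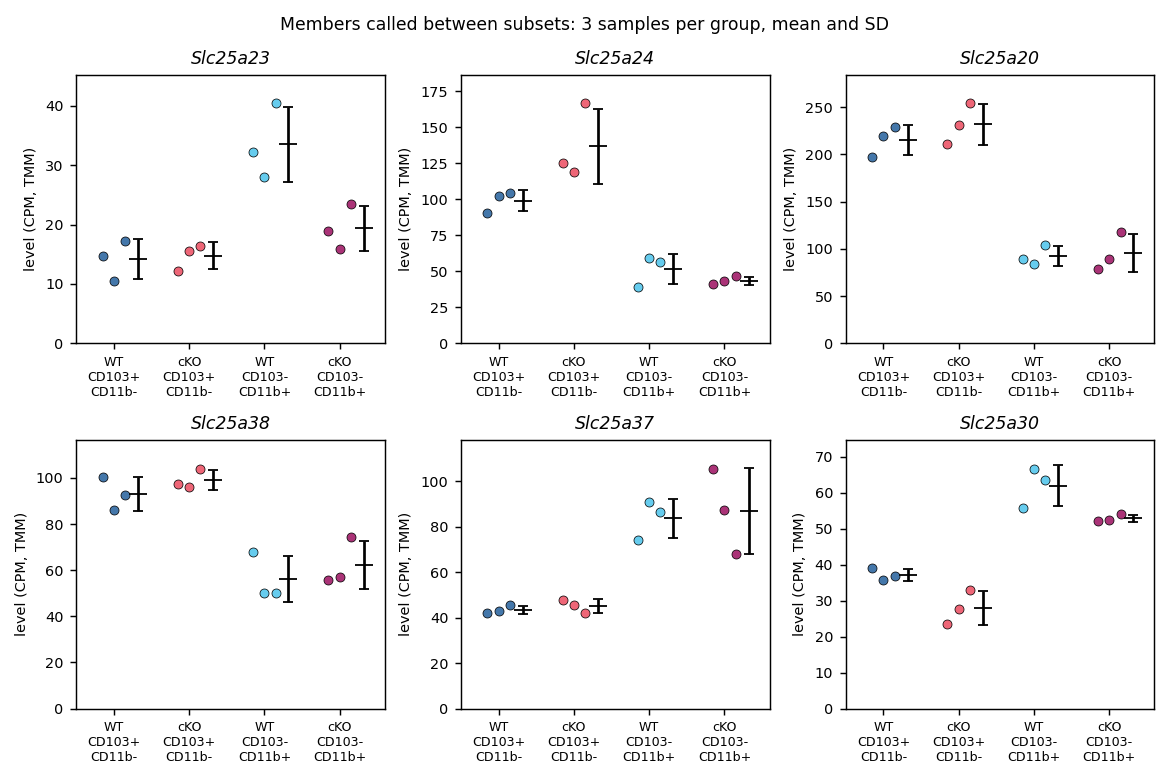
Level in CPM of 6 members called between subsets, with 1 point per sample and the mean and SD of 3 samples beside each group. *Slc25a24*, *Slc25a20* and *Slc25a38* are lower and *Slc25a37* and *Slc25a30* higher in all 6 CD103-CD11b+ samples, while *Slc25a23* is higher there in WT (28.0 to 40.4 against 10.5 to 17.3 CPM) and overlaps in cKO.

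When the replicate number was a block within the cKO mice, where samples with the same number deviated together, the 10 calls of the cKO comparison were kept and *Slc25a4*, *Slc25a28*, *Slc25a39* and *Slc25a45* were called in addition, all lower in CD103-CD11b+ DCs. Markers of other cell types also differed between the subsets, although the sort for CD45+CD64- cells is meant to leave macrophages and stroma out. Macrophage markers summed to 13.3 to 54.9 CPM in the 6 CD103+CD11b- samples and 136 to 455 CPM in the others, with 5 of 7 called higher in WT and 6 of 7 in cKO. Stroma markers ranged from 16.5 to 388 CPM and from 51.0 to 1293 CPM, with 0 of 5 called in WT and 1 in cKO by edgeR. B cell markers summed to 21.9 to 34.2 CPM in CD103+CD11b- and 65.8 to 382 CPM in CD103-CD11b+ samples of cKO, with 3 of 5 called higher there and 0 in WT. Plasma cell markers summed to 204 to 293 CPM in CD103+CD11b- and 303 to 552 CPM in CD103-CD11b+ samples of WT. In cKO the sums were 71.5 to 347 and 262 to 503 CPM, with overlap. Of these 3 markers edgeR called 0 in either genotype, and DESeq2 called *Sdc1* higher in CD103-CD11b+ DCs of WT. The part of these cells in the subset differences was not tested.

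By role, calls were spread over the family. Of the 9 carriers of nucleotides and cofactors, 1 was called lower in WT and, in cKO, 1 lower and 2 higher. Among the 7 of ornithine, basic amino acids and carnitine, 1 was higher and 2 lower in WT, and 0 were higher and 1 lower in cKO. The shares over all genes are those given above for each genotype. The adenine nucleotide exchangers *Slc25a4* and *Slc25a5* and the citrate and dicarboxylate carriers *Slc25a1* and *Slc25a10* had no call in any pairwise comparison by edgeR, apart from that of *Slc25a4* under the block, and their log2 fold changes between subsets lay between -0.55 and 0.03. Without the block, 28 members had no call in either genotype, either subset comparison or the interaction, of which 16 had no unadjusted p under 0.05 in any of them.

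Genes that work with the carriers were read from lists of pathways. Of 5 other proteins with the carrier fold, 0 were called between genotypes by edgeR or by DESeq2 (at an unadjusted p under 0.05, 0 in CD103+CD11b- and 1 in CD103-CD11b+ DCs). Among them *Ucp2* and *Mtch2* were lower in CD103-CD11b+ DCs in WT, with log2 fold changes of -0.76 (edgeR FDR 0.0154) and -0.74 (edgeR FDR 0.00286), and in cKO. Of 16 genes of the TOM and TIM22 import pathway, 0 were called between genotypes by either tool, also with 0 at an unadjusted p under 0.05, and *Agk*, a TIM22 subunit, was higher in CD103-CD11b+ DCs of cKO.

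Of 21 genes of S-adenosylmethionine supply and mitochondrial methylation, which make or use the cargo of *Slc25a26*, 0 were called between genotypes by edgeR or DESeq2, with 2 lower in each subset at an unadjusted p under 0.05. *Mat2a*, which makes S-adenosylmethionine, had 171 ± 27.5 CPM in WT and 201 ± 24.3 CPM in cKO CD103+CD11b- DCs (SD, n = 3; log2 fold change 0.23, edgeR FDR 0.708). *Mettl17* was lower in CD103-CD11b+ DCs in WT and in cKO.

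Of 14 genes of mitochondrial DNA maintenance and biogenesis, edgeR called 1 between genotypes and DESeq2 3. *Polg*, the catalytic subunit of the mitochondrial DNA polymerase, had 30.1, 30.2 and 37.7 CPM in WT and 128, 129 and 90.7 CPM in cKO CD103+CD11b- DCs, without overlap. It rose there by 1.83 on the log2 scale (standard error 0.25, edgeR FDR 0.00797), and the second subset had a log2 value of 0.57 (edgeR FDR 0.249). DESeq2 also called *Ppargc1b*, a coactivator of mitochondrial biogenesis, in CD103+CD11b- DCs, where its log2 value was 2.05 (edgeR FDR 0.0608). In CD103-CD11b+ DCs it called *Ssbp1*, which binds single-stranded mitochondrial DNA, with a log2 value of 1.40 (edgeR FDR 0.0596). Among 19 other mitochondrial transporters and channels, 1 was called between genotypes by both tools. *Sfxn3*, a serine transporter of mitochondria, had 73.2, 96.9 and 120.1 CPM in WT and 46.5, 50.9 and 44.9 CPM in cKO CD103-CD11b+ DCs. It fell by 1.03 on the log2 scale (standard error 0.20, edgeR FDR 0.0337). Between the WT subsets 5 of these 19 were higher and 2 lower in CD103-CD11b+ DCs, and 2 and 3 in cKO.

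Of 15 ATP synthase subunits that were measured, 0 were called between genotypes by either tool, with 1 higher in CD103-CD11b+ DCs at an unadjusted p under 0.05, and 2 were lower in CD103-CD11b+ DCs of WT. Over the 6 lists, 90 genes were measured, and edgeR called *Polg* and *Sfxn3* between genotypes, to which DESeq2 added *Ppargc1b* and *Ssbp1*.

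Since Cbfb acts at DNA through Runx factors, promoters of the members were searched for the Runx core letters TGTGGT and TGCGGT on both strands, where neighbouring matches of the 2 can share an end base. RefSeq windows (GRCm38.p6) of 300 bases around the gene start were matched for 33 of 43 members, 42 windows in all, and *Slc25a26* and *Slc25a37* were among those without an entry. Either motif was in 5 of 42 windows (11.9%), against 22.4% of the 32851 windows of all genes. The members that held one were *Slc25a4*, *Slc25a18*, *Slc25a20*, *Slc25a24* and *Slc25a29*, and the windows of *Slc25a12* and *Slc25a25* held none. The ETS letters CCGGAAGT were in 1 window of a member (2.38%, against 3.89% of all windows), and the NRF1 letters CGCATGCG in 0 (against 1.87%). A match is a description of the letters and not a bound site.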

How the data were processed

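RNA-seq libraries were made by RamDA-seq, adapted to small bulk samples, from DCs sorted as CD45+CD64-CD11c+MHC-II+ cells, with 3 samples from different mice in each of 4 groups. The authors trimmed reads with Trim Galore, aligned them with STAR 2.7 to mm10, removed duplicates and reads of low mapping quality, and deposited raw counts per Ensembl gene (GRCm38.92) made with htseq-count without strand. Removal of duplicates can hold down the counts of high genes, and reads of paralogs or of overlapping genes can be split or lost. Tools are as given in the submitters' processing notes and the study's methods. Here 5 summary lines were left out. The 37 mitochondrially encoded genes had no counts. Symbols, exon lengths and positions came from GENCODE M21 (GRCm38), which matched 53706 IDs (99.82%).

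Genes that reached 5 counts in any sample were kept. All 12 samples entered 1 edgeR 4.0.16 fit (R 4.3.3, TMM, quasi-likelihood F-test, Benjamini-Hochberg over 20580 genes). Pairs of groups were called where FDR was under 0.05 and the change exceeded 1.3-fold, the interaction at FDR under 0.05 and any difference at FDR under 0.01. Fold changes are edgeR's fitted values. DESeq2 1.42.0 was an alternative, beside the likelihood ratio test, RLE scaling, other filters and thresholds, a replicate block, fits to 6 samples and the omission of each sample. Over genes, replicates of a group differed by 2.46 to 23.2 in chi-square per degree of freedom, which is more than counting noise. So no replicate was another of its group deposited again, and libraries of different groups were not compared in this way. Replicates 1 and 2 had the lowest value in WT CD103+CD11b- (2.46), cKO CD103+CD11b- (3.65) and cKO CD103-CD11b+ DCs (8.19). In WT CD103-CD11b+ DCs they had the highest (23.2). Whether libraries were made from the same cells is not tested by these values.

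Whether replicate numbers pair samples was checked by correlating the deviations of same-numbered samples from their group means. Every pair exceeded 0.1 between the cKO subsets only (0.112, 0.321 and 0.354), and the blocked count for that comparison is given beside it. Members and lists were chosen with earlier results of these data known. A single member enters the counts and tests and is not reported here by name. Values are given by sample for other members called between genotypes, for the called members with the smallest p between subsets, and for those with the highest level per kilobase. The other called members, and a few with a value only, were added after their values were seen. Depth was 2161929 to 5863484 counts per sample, which limits precision for members near the floor of 3 counts.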

Additional observations from a re-analysis of the deposited data

Results flagged for a closer look

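The effect of cKO on *Slc25a26*, the S-adenosylmethionine carrier, differed between the subsets. On the log2 scale cKO exceeded WT by 1.19 among CD103+CD11b- and by 0.13 among CD103-CD11b+ cells, a difference of -1.06 (edgeR interaction term, Benjamini-Hochberg FDR 0.0227), with 3 of 3 cKO samples above all WT samples in the first subset and overlap in the second. Leaving out any of 8 single samples gave an FDR of 0.0514 to 0.0858.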

How the results depend on the processing

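Of the 27 log2 fold changes of called members, 558 values were computed under the alternatives. All kept their direction, 487 kept their call, and 71 lost it. At FDR under 0.01 the number of members called was 1 between genotypes in CD103+CD11b- DCs, 0 in CD103-CD11b+ DCs, 0 for the interaction and 6 between the WT subsets. At an unadjusted p under 0.05 edgeR gave 8 members in each of the first 3, and DESeq2 called 4 in CD103-CD11b+ DCs and 2 for the interaction. Fits to 6 samples called 1 in CD103+CD11b- and 0 in CD103-CD11b+ DCs. For any difference among the 4 groups, the likelihood ratio test called 14, DESeq2 15 and FDR under 0.1 gave 21. Causes of these changes were not tested, other than the thresholds themselves. Leaving out 1 sample gave 1 to 2 and 0 to 1 calls between genotypes in the first and second subset, 0 to 2 for the interaction, 7 to 15 between WT subsets, 8 to 12 between cKO subsets and 5 to 11 for any difference.

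The replicate block gave 3, 3, 1, 14, 14 and 13 calls for these 6 comparisons in the same order, and within genotype 16 between WT subsets and 14 between cKO subsets. Outside the cKO subsets at least 1 pair of same-numbered samples fell under the limit of 0.1 and others lay above it, so that the criterion for pairing was not met although some pairs deviated together, with correlations of -0.0911 to 0.132 and 0.02 to 0.422 between genotypes in the first and second subset and -0.0846 to 0.357 between the WT subsets. Even so, the sample numbered 3 was highest in all 4 groups for 6.81% and lowest for 8.03% of all genes. For samples numbered 1 and 2 these shares were 1.76% to 2.74%. Part of the genes thus varied with the number across groups, the main fits held no block for it, and its source was not tested. The summed level in WT CD103+CD11b- DCs was 2319 CPM with RLE scaling. Without the 3 members with most counts it was 1652, 1754, 1539 and 1493 CPM in WT and cKO CD103+CD11b- and WT and cKO CD103-CD11b+ DCs. With 1 sample left out, the sums were 2346 to 2401, 2439 to 2565, 1998 to 2154 and 2122 to 2311 CPM in the same order. With 3 samples a group and few counts for some members, modest changes of low members were not detectable.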

Other observations

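Samples numbered 3 were the highest of their group in all 4 groups for 8 members, *Slc25a2*, *Slc25a4*, *Slc25a17*, *Slc25a20*, *Slc25a23*, *Slc25a28*, *Slc25a33* and *Slc25a39*. For 6.81% of all genes tested the sample numbered 3 was highest throughout, and for samples numbered 1 and 2 this held for 0 members each, against 2.03% and 2.74% of all genes. The sample numbered 3 was lowest throughout for *Slc25a40* and *Slc25a53*, against 8.03% of all genes, and the sample numbered 1 for *Slc25a17* and *Slc25a28*, against 1.76%. For the sample numbered 2 this held for 0 members, against 2.4% of all genes.

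Of the closest pairs in coding sequence, the ADP/ATP carriers *Slc25a4* and *Slc25a5* were 78.2% identical, the aspartate/glutamate carriers *Slc25a12* and *Slc25a13* 71.4% and the glutamate carriers *Slc25a18* and *Slc25a22* 70.3%. Some members are neighbours. *Slc25a5* and *Slc25a43* lie 18.45 kb apart on the X chromosome, *Slc25a23* and *Slc25a41* 2.057 kb apart on chromosome 17, and *Slc25a24* and *Slc25a54* 6.462 kb apart on chromosome 3. In the last 2 pairs 1 gene did not pass the count filter.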
